A study of Homo sapiens with 6 samples.

Results

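The genes described here encode the translation factors and the tRNA synthetases measured in MDA-MB-231 cells, together with ASNS and PSAT1, a pair of enzymes of amino acid synthesis that the transcription factor ATF4 induces. They were chosen by symbol: names beginning with EIF1 to EIF6 or with EEF1 or EEF2, synthetase names ending in ARS1 or ARS2, EPRS1, ASNS and PSAT1. The rule found 53 of 14884 named genes, made up of 24 initiation factors and regulators, 10 elongation factors and regulators, 17 synthetases, ASNS and PSAT1. All 17 synthetases were of the series ending in 1, which act in the cytosol, GARS1 and KARS1 also in mitochondria. Subunits of eIF2, eIF2B, eIF3 and eIF4G and the mitochondrial synthetases were not analysed here.

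MDA-MB-231 is an established human breast cancer cell line of the triple-negative type that carries a mutant p53. Cells were transfected with 1 of 3 small interfering RNAs using Lipofectamine RNAiMAX: siATM, against the DNA damage kinase ATM, sip53, against p53, or siNC, a control. Each was measured on 2 Affymetrix Human Gene 2.0 ST arrays of total RNA, 6 arrays in all, and the labels give neither the time after transfection nor whether replicates were separate cultures. P-values therefore cover the spread among these samples alone, possibly a technical one, and with 1 siRNA per target the effect of the siRNA and of the loss of its target cannot be told apart.

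Initiation brings the small ribosomal subunit, loaded with initiator tRNA by eIF2, to the capped end of an mRNA through eIF4E and its partners. Stress kinases phosphorylate eIF2, which slows most initiation but raises translation of ATF4, and ATF4 in turn induces ASNS, PSAT1 and many synthetase genes. Elongation is carried by eEF1A, which delivers charged tRNAs, and eEF2, which moves the ribosome along, while the synthetases charge each tRNA with its amino acid.

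Promoter sequence was available for 43 of the 53 genes as 59 windows of 300 bases, from 250 bases before to 50 after the annotated start (RefSeq, GRCh38.p14), and 3 motifs were searched on both strands. The C/EBP-ATF composite element that ATF4 binds, TGATGNAA, was found in 3.62% of all 35116 promoter windows of the same length, or in 4.46% of the 27305 genes with a window. Among the genes described here it lay in the windows of 7 of 14 synthetases (AARS1, CARS1, GARS1, IARS1, MARS1, NARS1 and TARS1), of ASNS and of the cap-binding factor EIF4E3, and PSAT1 held no match in its window. A match describes these letters and shows no binding. The 6 genes of this set that were called in a comparison below are shown on the strand that reads the motif, with the motif in capitals, 30 bases each.
ASNS (chr7:97872458-97872487, minus strand): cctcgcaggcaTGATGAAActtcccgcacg
EIF4E3 (chr3:71729113-71729142, minus strand): tgccatggtgaTGATGAAAgttgggctgat
IARS1 (chr9:92293692-92293721, plus strand): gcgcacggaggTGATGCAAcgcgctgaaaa
MARS1 (chr12:57488053-57488082, minus strand): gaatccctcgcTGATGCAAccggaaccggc
NARS1 (chr18:57621804-57621833, minus strand): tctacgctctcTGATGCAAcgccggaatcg
TARS1 (chr5:33440956-33440985, minus strand): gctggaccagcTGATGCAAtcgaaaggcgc

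The interferon response element, searched as GAAA, any 2 bases and GAAA again, was found in 3.57% of all windows, or in 4.38% of the genes with a window, and here in 3 of 43 genes: WARS1, EIF2AK2 and EIF6. WARS1 and EIF2AK2 are known interferon-induced genes, and both were called lower after siATM than after sip53, as were 16.3% of all tested genes. EIF6 was not called there (−0.06, limma, adjusted p = 0.682), and EIF2AK2 was not called against siNC after either siRNA. A part of interferon in these differences was not tested.
WARS1 (chr14:100375383-100375412, minus strand): tttcagaaggGAAACTGAAAgaaagagggg
EIF2AK2 (chr2:37156967-37156996, minus strand): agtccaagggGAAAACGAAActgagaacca

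The E-box CACGTG, a palindrome read by MYC and related factors, was found in 7.26% of all windows, or in 8.77% of the genes with a window, and here in 9 of 43 genes: EEF2K, EIF1B, EIF2AK2, EIF4A3, EIF4B, EIF4E, EIF4H, EIF5A2 and IARS1. EIF5A2, the gene with the largest fold change here, held 2 copies, shown as 60 bases from 200 to 141 bases before its start. EIF4E also held 2 copies, so this count is not particular to EIF5A2. EIF4E was not called against siNC but, like EIF5A2, was called lower after siATM than after sip53 (−0.21, limma, adjusted p = 0.0442). EIF4B and EEF2K, which were higher after siATM while EIF5A2 was lower, held 1 copy each. Of the other genes with the E-box, EIF2AK2 and EIF4A3 were called lower after siATM than after sip53. IARS1 was called lower after siATM than after siNC, and EIF1B and EIF4H were not called.
EIF5A2 (chr3:170908778-170908837, minus strand): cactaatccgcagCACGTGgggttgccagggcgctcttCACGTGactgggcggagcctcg
EIF4B (chr12:53006422-53006451, plus strand): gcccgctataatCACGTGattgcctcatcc
EEF2K (chr16:22206207-22206236, plus strand): cctgggggcggcCACGTGagcgccacgccg

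Values are log2 signals of 1 probe set per gene, a level that can be compared between arrays but not between genes. Array medians ranged over 5.95 to 5.98. Over the members tested, the difference between 2 arrays of 1 group had an SD of 0.116 for siATM, 0.0825 for sip53 and 0.0880 for siNC, against 0.157 to 0.317 between arrays of different groups. All 7 measured markers of the line (VIM, CD44, MSN, AXL, FOSL1, KRT18, KRT8) lay above the filter on dim genes, and the receptor genes ESR1 and PGR below it, but EPCAM, fixed as absent, averaged 9.02. Markers of other cell types passed the filter too, so it does not single out the line. Above it lay 2 of 2 named haematopoietic genes (CD68 at 11.94 and LYZ at 7.05). The same held for 1 of 2 endothelial and fibroblast genes (PECAM1 at 6.38) and 3 of 4 luminal genes (KRT19 at 10.64). Of these, LYZ (0.38 on the log2 scale) was called higher after siATM and PECAM1 (−0.47) lower. Of 4 named luminal genes, KRT19 (0.29) and GATA3 (0.31) were called higher after siATM, and GATA3 also after sip53 (0.65). Their part in the results was not tested.

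In the siATM cells, EIF5A2, EIF4E3, ASNS, PSAT1 and WARS1 fell by 1.40-fold to 1.98-fold against siNC cells, and EIF4B, EIF2AK3, EEF2K and EIF2D rose by 1.19-fold to 1.33-fold. In the sip53 cells, ASNS, EIF5, EIF2D and NARS1 were lower by 1.25-fold to 1.36-fold and EIF5B, EIF5A2 and EIF1AD higher by 1.17-fold to 1.24-fold. A gene was called changed at an adjusted p below 0.05, from limma with Benjamini-Hochberg adjustment over all 10640 genes tested. EEF1AKMT1, a methyltransferase of eEF1A, was too dim to be tested, with levels of 5.41 to 5.86, and the other 52 genes were tested. In bulk RNA, fewer cells that express a gene and less of its RNA per cell cannot be told apart.

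After siATM, 12 of the 52 were called, 4 higher and 8 lower, or 23.1%, where 25.5% of all tested genes were called (12.5% higher and 13% lower). After sip53, 8 of the 52 were called, 3 higher and 5 lower, or 15.4%, against 10.6% of all tested genes (5.47% higher and 5.11% lower). The share after siATM was thus near that of all genes. The median log2 fold change of the members was −0.07 after siATM and 0.01 after sip53, against −0.00 and 0.01 over all tested genes. With each array centred on its median, the 582 higher and 544 lower genes after sip53 became 410 higher and 668 lower, and the members' median there was −0.019. Of the 17 genes called in either comparison with siNC, 3 were called in both: ASNS, EIF5A2 and EIF2D. Only ASNS changed in the same direction in both, lower, while EIF5A2 and EIF2D changed in opposite directions. The overlap over all tested genes was not counted. The 2 comparisons share the siNC arrays, so their calls are not independent of each other.

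**Figure D1:**
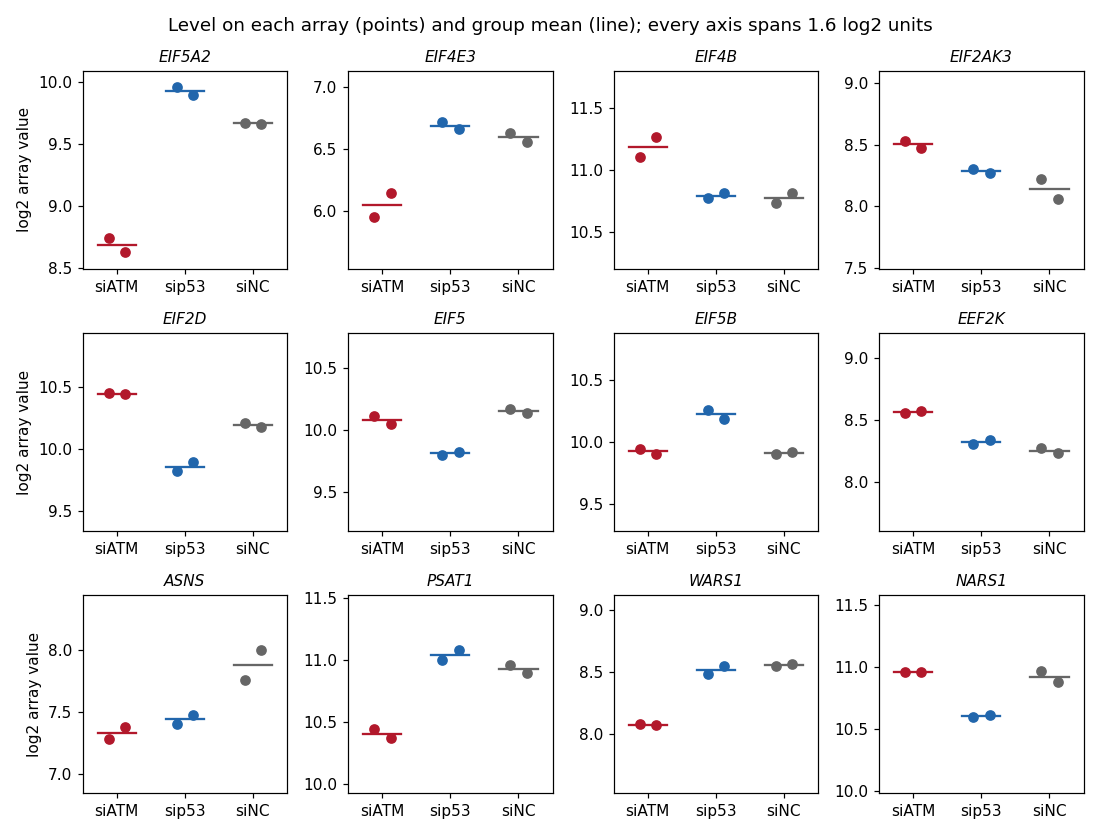
Log2 array value (y axis, each panel spanning 1.6 log2 units) of 12 genes on the 2 arrays of siATM, sip53 and siNC cells, points being arrays and lines group means. EIF5A2 lies at 8.63 and 8.74 on the siATM arrays, below all other arrays, while ASNS lies below the siNC arrays on all 4 siATM and sip53 arrays.

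The initiation factors held the largest single change. With 5 of 24 initiation genes called in each comparison with siNC, their share was 20.8%. That of all tested genes was 25.5% after siATM and 10.6% after sip53. EIF5A2 encodes the second isoform of eIF5A, the hypusine-bearing factor that relieves ribosome stalling, and is known to be overexpressed in several tumours. Its log2 level was 8.74 and 8.63 in siATM cells, 9.96 and 9.89 in sip53 cells, and 9.67 on both siNC arrays. The siATM arrays lay below and the sip53 arrays above both siNC arrays. The difference from siNC was −0.99 after siATM (SE 0.06, adjusted p = 0.000244), 1.98-fold lower, and 0.26 after sip53 (SE 0.06, adjusted p = 0.0468), 1.19-fold higher. The main isoform EIF5A had levels of 8.03 and 8.07 in siATM cells, 8.00 and 8.06 in sip53 cells, and 8.23 and 7.96 in siNC cells, so its groups overlapped. EIF5A and EIF5AL1 are near-identical copies whose probes cannot be fully told apart, and neither was called in any comparison (log2 differences between −0.07 and 0.04).

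Among the cap-binding factors and their helpers, grouped by symbol, 2 of 8 were called after siATM (25%, near the 25.5% of all tested genes). None were called after sip53, 0 of 8 against 10.6% of all tested genes, and 1 of the 8 had an unadjusted p below 0.05 there (limma). EIF4E3, a cap-binding relative of eIF4E, had levels of 5.95 and 6.14 in siATM cells, 6.71 and 6.66 in sip53 cells, and 6.63 and 6.56 in siNC cells. Both siATM arrays lay below all others, 1 of them just under the filter value of 5.96, and the log2 difference from siNC was −0.55 (SE 0.08, adjusted p = 0.00302), 1.46-fold lower. EIF4B, which stimulates the helicase that unwinds mRNA leaders, went the other way. It reached 11.10 and 11.26 in siATM cells, against 10.77 and 10.81 in sip53 cells and 10.73 and 10.81 in siNC cells, a log2 difference of 0.41 from siNC (SE 0.07, adjusted p = 0.00634), 1.33-fold higher. A second probe set of EIF4B differed in the same direction, by 0.50 after siATM and 0.11 after sip53.

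The cap-binding protein itself, EIF4E, was not called against siNC. Its levels were 7.02 and 6.97 in siATM cells, 7.27 and 7.15 in sip53 cells, and 7.13 and 7.11 in siNC cells, with log2 differences of −0.12 (adjusted p = 0.197) and 0.08 (adjusted p = 0.455). EIF4EBP1, which binds eIF4E and blocks it until mTORC1 phosphorylates it, differed by −0.17 after siATM and by 0.17 after sip53, and EIF4EBP2 by 0.11 and 0.15, none of them called. The other uncalled members of the cap group were EIF4A3, EIF4E1B, EIF4E2, EIF4ENIF1 and EIF4H. They differed by −0.22 to 0.10 after siATM and by −0.17 to 0.11 after sip53. EIF4A3, the exon junction helicase, is in this group by its symbol alone.

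Of the 4 kinases that phosphorylate eIF2, 0 were called or had an unadjusted p below 0.05 after sip53 (limma), where 10.6% of all tested genes were called. Only EIF2AK3 was called after siATM, higher, or 25% of the 4 against 25.5% of all tested genes. It encodes PERK, the kinase that senses unfolded proteins in the endoplasmic reticulum. Its levels were 8.53 and 8.47 in siATM cells, 8.30 and 8.27 in sip53 cells, and 8.22 and 8.06 in siNC cells. The siATM arrays lay above the rest, 1.28-fold higher than siNC (log2 difference 0.36, SE 0.07, adjusted p = 0.00979). The sip53 arrays also lay above the siNC arrays, but the difference of 0.14 was not called (adjusted p = 0.244). The direct difference between the 2 siRNAs, 0.22, was not called either (adjusted p = 0.0523).

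EIF2AK4, which encodes GCN2, the sensor of uncharged tRNA, had overlapping levels of 9.95 and 9.76 in siATM cells, 9.85 and 9.74 in sip53 cells and 9.78 and 9.70 in siNC cells. EIF2AK2, which encodes the double-stranded RNA sensor PKR, had levels of 10.06 and 9.87 in siATM cells, 10.35 and 10.25 in sip53 cells and 10.13 and 10.23 in siNC cells, differences of −0.22 (adjusted p = 0.0856) and 0.12 (adjusted p = 0.411). EIF2AK1, the haem-regulated kinase, differed by −0.09 and −0.07.

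The remaining 7 genes named as initiation factors held 1 call after siATM (14.3%, against 25.5% of all tested genes). They held 4 calls after sip53 (57.1%, against 10.6% of all tested genes), a share that rests on 7 genes. EIF2D delivers initiator tRNA without eIF2 and helps to recycle ribosomes. Its levels were 10.45 and 10.44 in siATM cells, 9.82 and 9.89 in sip53 cells, and 10.21 and 10.18 in siNC cells, so the 3 groups did not overlap and the 2 siRNAs lay on opposite sides of the control. It was 1.19-fold higher after siATM (log2 difference 0.25, adjusted p = 0.0173) and 1.26-fold lower after sip53 (−0.34, SE 0.06, adjusted p = 0.0132). DENR, which with MCTS1 forms a complex that resembles eIF2D and shares its recycling role, is no member of the set. It too was lower after sip53, at 8.78 and 8.76, against 9.41 and 9.35 in siNC cells (log2 difference −0.61, SE 0.07, adjusted p = 0.0031), 1.53-fold lower, while its siATM levels of 9.52 and 9.38 did not differ detectably from siNC (adjusted p = 0.491). MCTS1 was not called, with differences of 0.08 and 0.15.

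EIF5, the GTPase-activating protein of eIF2, had levels of 10.11 and 10.05 in siATM cells, 9.80 and 9.83 in sip53 cells, and 10.17 and 10.14 in siNC cells. It was 1.27-fold lower after sip53 (log2 difference −0.34, SE 0.06, adjusted p = 0.0120), and was not called after siATM (−0.07, adjusted p = 0.380). EIF5B, the GTPase that joins the ribosomal subunits, moved in the opposite direction, with 10.26 and 10.19 in sip53 cells against 9.90 and 9.92 in siNC cells, 1.24-fold higher (adjusted p = 0.0174). Its siATM levels of 9.94 and 9.91 overlapped those of siNC. EIF1AD, a nuclear protein with an eIF1A-like domain, was 1.17-fold higher after sip53, with 10.42 and 10.44 against 10.21 and 10.19 in siNC cells (adjusted p = 0.0396). EIF1, EIF1B and EIF6 were not called in any comparison, with differences from siNC between −0.17 and 0.25.

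**Figure D2:**
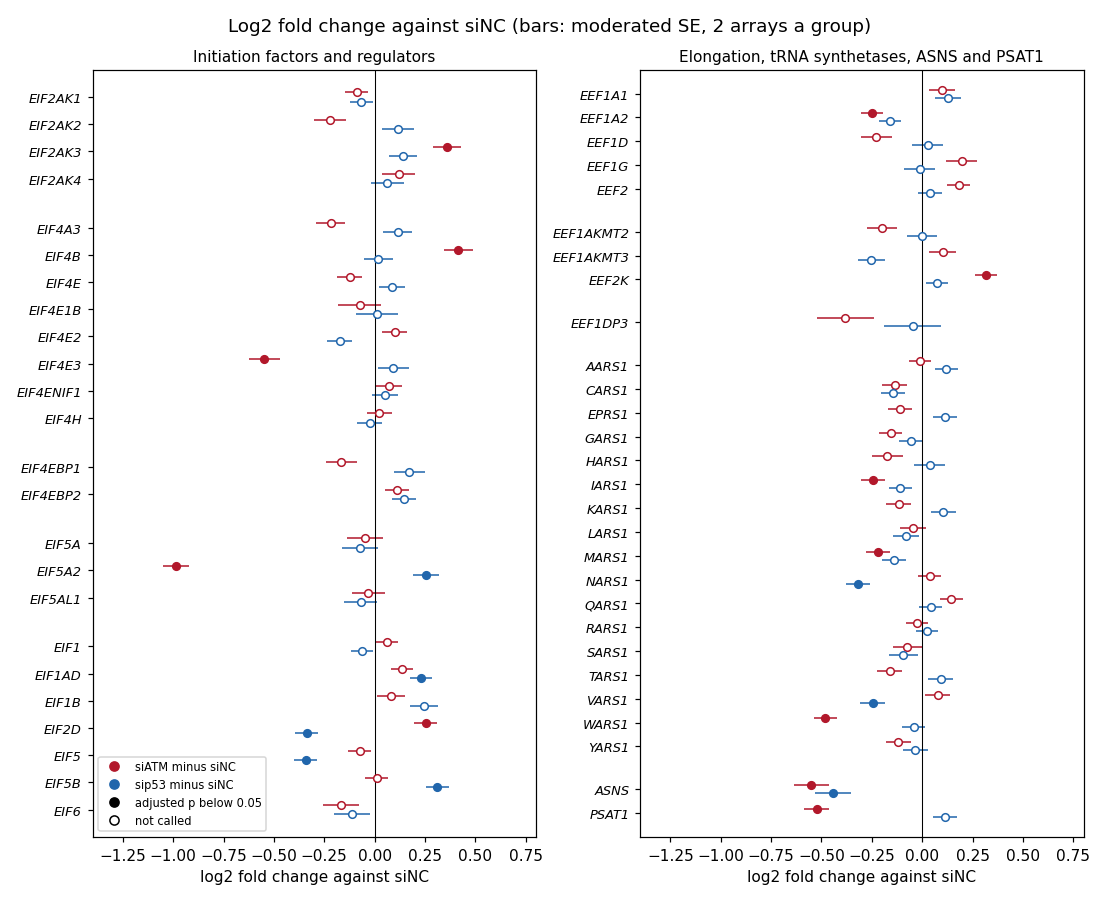
Log2 fold change against siNC (x axis, bars are moderated SE) of the 52 tested genes, grouped by role from top to bottom, siATM in red and sip53 in blue, filled where the adjusted p is below 0.05. EIF5A2 is the lowest point at −0.99 after siATM, and 14 of the 17 synthetases lie left of 0 after siATM, 3 of them called. Of all 10640 tested genes, 5329 had a negative difference there.

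Of the 9 elongation genes tested, 2 were called after siATM (22.2%, against 25.5% of all tested genes). None were called after sip53, 0 of 9 against 10.6% of all tested genes, and 2 had an unadjusted p below 0.05 there (limma). EEF2K, the kinase that phosphorylates and inhibits eEF2, had levels of 8.56 and 8.57 in siATM cells, 8.31 and 8.34 in sip53 cells and 8.27 and 8.23 in siNC cells. It was 1.25-fold higher after siATM (log2 difference 0.32, SE 0.06, adjusted p = 0.00651), and its groups did not overlap. Its substrate EEF2 had 12.85 and 12.77 in siATM cells, 12.66 and 12.67 in sip53 cells and 12.63 and 12.62 in siNC cells. The siATM arrays were the highest, but the difference of 0.18 was not called (adjusted p = 0.0567).

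EEF1A2, the form of eEF1A usual in muscle and neurons, was 1.19-fold lower after siATM, with 8.48 on both siATM arrays, 8.58 and 8.56 in sip53 cells, and 8.76 and 8.71 in siNC cells (log2 difference −0.25, SE 0.05, adjusted p = 0.0162). EEF1A1, the widely expressed form, differed by 0.10 after siATM and 0.13 after sip53 and was not called, and it has many processed copies whose probes may share sequence. EEF1G and EEF1D, subunits of the exchange factor that reloads eEF1A, differed by 0.20 and −0.23 after siATM, neither called, and a second probe set of EEF1G showed −0.00 there. The pseudogene EEF1DP3 differed by −0.38 after siATM with a large SE of 0.14. The eEF1A methyltransferase genes EEF1AKMT2 and EEF1AKMT3 were not called against siNC.

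Of the 17 synthetases, 3 were called after siATM, 3 lower and 0 higher, or 17.6%. Of all tested genes 25.5% were called there, 13% lower and 12.5% higher. After sip53, 2 were called, 2 lower and 0 higher, or 11.8%, against 10.6% of all tested genes (5.11% lower and 5.47% higher). The median log2 fold change was −0.12 after siATM and −0.04 after sip53. After siATM 14 of 17 had a negative difference, where 5329 of all 10640 tested genes and 32 of the 52 members did. These genes share the same arrays, so they are not independent of each other. All but 1 of the 14 differences were smaller than 0.25. WARS1, the tryptophanyl-tRNA synthetase, was the exception: its levels were 8.08 on both siATM arrays, 8.48 and 8.55 in sip53 cells, and 8.55 and 8.57 in siNC cells. It was 1.40-fold lower after siATM (log2 difference −0.48, SE 0.06, adjusted p = 0.00156), with no overlap. A second, dimmer probe set of WARS1 differed by only −0.11, so the size of the change depends on the probe set.

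IARS1, the isoleucyl enzyme, had 11.43 and 11.34 in siATM cells, 11.54 and 11.50 in sip53 cells and 11.63 and 11.62 in siNC cells (siATM minus siNC −0.24, SE 0.06, adjusted p = 0.0226). MARS1, the methionyl enzyme, had 9.61 and 9.54 in siATM cells, 9.63 and 9.69 in sip53 cells and 9.82 and 9.77 in siNC cells (−0.22, SE 0.06, adjusted p = 0.0339). Both are among the promoters with the ATF4 element shown above. The other synthetases with the element were not called after siATM: AARS1 at −0.01, CARS1 at −0.14, GARS1 and TARS1 at −0.16 each and NARS1 at 0.04. WARS1, which fell most, held no match in its window. A part of ATF4 in these calls was not tested. In IARS1 and MARS1 the sip53 arrays lay between the other groups and were not called against siNC. NARS1 and VARS1, the asparaginyl and valyl enzymes, were instead called lower after sip53.

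NARS1 had 10.96 on both siATM arrays, 10.59 and 10.61 in sip53 cells, and 10.96 and 10.88 in siNC cells, 1.25-fold lower after sip53 (log2 difference −0.32, SE 0.06, adjusted p = 0.0167). VARS1 had 9.42 and 9.51 in siATM cells, 9.14 on both sip53 arrays, and 9.35 and 9.43 in siNC cells (−0.25, SE 0.06, adjusted p = 0.0471), and its second probe set gave the same −0.25. In both genes the sip53 arrays lay below all others while siATM and siNC overlapped. The highest synthetase value was that of QARS1 after siATM, at 0.14, and of AARS1 after sip53, at 0.12, neither called. EPRS1, which charges both glutamate and proline, differed by −0.11 and 0.11, neither called.

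ASNS, which makes asparagine from aspartate and glutamine, was lower after either siRNA. Its levels were 7.28 and 7.38 in siATM cells, 7.40 and 7.47 in sip53 cells, and 7.76 and 8.00 in siNC cells. All 4 knockdown arrays lay below both siNC arrays, and the siNC arrays differed between themselves by more than those of either other group. The fold was 1.46 lower after siATM (log2 difference −0.55, SE 0.09, adjusted p = 0.00474) and 1.36 lower after sip53 (−0.44, SE 0.09, adjusted p = 0.0232).

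PSAT1, which makes phosphoserine in the synthesis of serine, was called lower after siATM and not called after sip53. Its levels were 10.44 and 10.37 in siATM cells, 11.00 and 11.08 in sip53 cells, and 10.96 and 10.90 in siNC cells. It was 1.44-fold lower after siATM than after siNC (log2 difference −0.52, SE 0.06, adjusted p = 0.00157), and 0.11 higher after sip53, which was not called (adjusted p = 0.297). The other enzymes of the same route, PHGDH before it and PSPH after it, were also called lower after siATM, and neither was called after sip53. PHGDH had 6.98 and 7.01 in siATM cells, 7.20 and 7.23 in sip53 cells and 7.22 and 7.34 in siNC cells (siATM minus siNC −0.28, adjusted p = 0.0167). PSPH had 9.48 and 9.44 in siATM cells, 9.89 and 9.88 in sip53 cells and 9.69 and 9.67 in siNC cells (siATM minus siNC −0.22, adjusted p = 0.0266). This call of PSPH was lost with no filter on dim genes (limma, adjusted p = 0.0651) and in a fit of the 2 groups alone.

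These genes were set beside a list of 41 other ATF4-linked stress and amino acid genes, of which 17 were tested. After siATM, 4 of 17 were called (23.5%, near the 25.5% of all tested genes), 1 higher and 3 lower, with a median log2 fold change of −0.07. After sip53, 1 of 17 was called, higher (5.88%, against 10.6% of all tested genes), with a median of −0.04. Besides PHGDH and PSPH the calls were CTH, of cysteine synthesis, at −0.28 after siATM (adjusted p = 0.0324) and 0.32 after sip53 (adjusted p = 0.0385), and the lipoprotein receptor VLDLR at 0.28 after siATM (adjusted p = 0.0447). The mRNA of ATF4 itself was not called, at 10.59 and 10.55 in siATM cells, 10.46 and 10.40 in sip53 cells and 10.46 and 10.48 in siNC cells. ATF4 is controlled largely at translation, which these arrays do not measure. The stress genes DDIT3, ATF3 and TRIB3 were not called either.

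**Figure D3:**
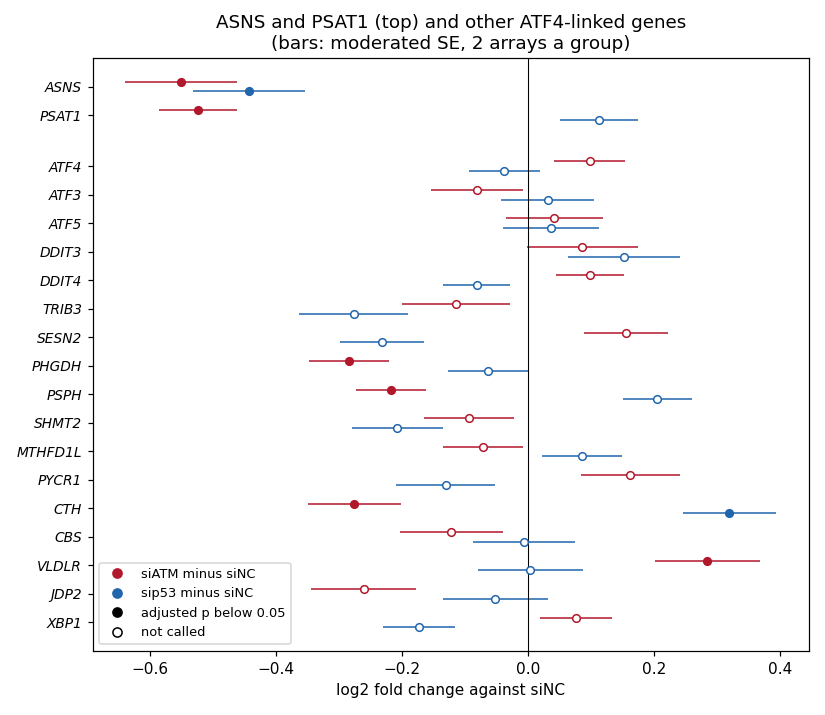
Log2 fold change against siNC (x axis, bars are moderated SE) of ASNS, PSAT1 and the 17 tested genes of the ATF4-linked list, siATM in red and sip53 in blue, filled where the adjusted p is below 0.05. PSAT1, PHGDH, PSPH and CTH are called lower after siATM, while ATF4, DDIT3, ATF3 and TRIB3 are open symbols in both.

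Of the 14 tested genes of a list of other translation machinery (release and recycling factors, mitochondrial factors and others), 1 was called after siATM, the eIF4A inhibitor PDCD4, and 1 after sip53, DENR, or 7.14% each, against 25.5% and 10.6% of all tested genes. PDCD4 had levels of 8.35 and 7.90 in siATM cells, against 7.70 and 7.68 in siNC cells (log2 difference 0.43, adjusted p = 0.0494). The siATM arrays were far apart, and without siATM replicate 1 the difference was 0.21 and not called (adjusted p = 0.0858). The call was also lost with quantile normalization, with no filter on dim genes and in a fit of the 2 groups alone. The median log2 fold change of that list was 0.05 after siATM and −0.01 after sip53. Of 13 tested genes that signal from mTORC1 or MAP kinases to initiation, 3 were called higher and 2 lower after siATM, 38.5% against 25.5% of all tested genes, with a median of 0.02. Besides SESN3, a stress-induced inhibitor of mTORC1 signalling (1.18, adjusted p = 9.2e-05), these were MKNK2, a kinase of eIF4E (0.47, adjusted p = 0.00224), TSC2, an mTORC1 inhibitor (0.23, adjusted p = 0.0232), MTOR itself (−0.34, adjusted p = 0.0056) and its activator RHEB (−0.23, adjusted p = 0.0350). After sip53, 2 were higher and 1 lower, 23.1% against 10.6% of all tested genes, with a median of 0.04: SESN1 (0.42, adjusted p = 0.0227), MKNK2 (0.34, adjusted p = 0.0155) and RRAGD (−0.27, adjusted p = 0.0458).

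Each fit was repeated with 1 of the 6 arrays left out. Of the 12 calls after siATM, 7 (EIF5A2, ASNS, EIF4E3, PSAT1, WARS1, EIF4B and EEF2K) stayed called in all 6 such fits. EEF1A2 was lost without either siNC array (adjusted p up to 0.0944), EIF2AK3 without siNC replicate 2 (0.0578), EIF2D without siATM replicate 1 or either siNC array (0.0904), IARS1 without siATM replicate 2 or either siNC array (0.101) and MARS1 without any array but siATM replicate 1 (0.153). The number of members called was 8 without siNC replicate 1 and 7 without siNC replicate 2.

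Of the 8 calls after sip53, 0 stayed called in all of these fits (limma), and all 8 had an unadjusted p below 0.05 with all arrays. ASNS was lost without either sip53 array or siNC replicate 2 (adjusted p up to 0.128), and the other 7 without any 1 of the sip53 or siNC arrays (adjusted p up to 0.228). The number of members called was 1 without siNC replicate 1 and 0 without siNC replicate 2 or either sip53 array. Outside the set, DENR stayed called after sip53 in all 6 fits, as did SESN3, MKNK2 and MTOR after siATM. The other calls of the lists did not. After siATM, PHGDH was lost without siATM replicate 1 or siNC replicate 2 (adjusted p up to 0.0992), CTH without either siATM array or siNC replicate 2 (0.169), PSPH and RHEB without any array but siATM replicate 1 (0.119 and 0.137), PDCD4 without any array but siATM replicate 2 (0.160), TSC2 without siATM replicate 2 or either siNC array (0.112) and VLDLR without any siATM or siNC array (0.169). After sip53, CTH was lost without any 1 of the 6 arrays (0.206), MKNK2 and RRAGD without any sip53 or siNC array (0.119 and 0.222) and SESN1 without either sip53 array or siNC replicate 2 (0.130).

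Set directly against each other, siATM and sip53 cells differed in 21 of the 52 genes, 8 higher and 13 lower after siATM, or 40.4%, against 30.3% of all tested genes (14% higher and 16.3% lower). The median log2 difference was −0.07, against −0.01 over all tested genes. With each array centred on its median, the balance over all genes turned from 1487 higher and 1732 lower to 1669 higher and 1558 lower and their median to 0.012, while the members' median was −0.047, with 9 higher and 10 lower. By class, 11 of 24 initiation genes, 3 of 9 elongation genes, 6 of 17 synthetases and PSAT1 were called. This comparison tests whether the effects of the 2 siRNAs differ, and it uses the same arrays as the comparisons with siNC.

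EIF5A2 differed most, 2.36-fold lower after siATM (log2 difference −1.24, SE 0.06, adjusted p = 9.77e-05). EIF4E3 and PSAT1 were lower by 0.64 on the log2 scale each (adjusted p = 0.00119 and 0.00058) and WARS1 by 0.44 (adjusted p = 0.00153). The second, dimmer probe set of WARS1 differed by only −0.07 here, so the size of this change too depends on the probe set. EIF2D was 1.51-fold higher after siATM (0.59, SE 0.06, adjusted p = 0.000577), and its near relative in function, DENR, was higher by 0.68 (adjusted p = 0.000612). EIF4B was higher by 0.40 (adjusted p = 0.00591). NARS1 and VARS1 were higher by 0.36 (adjusted p = 0.00378) and 0.32 (adjusted p = 0.00733).

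Of the 21, 10 were not called for either siRNA against siNC. In all 10 the siNC arrays lay on average between the other groups, but choosing genes in this way largely brings that about, so it is no separate result. Of these, 8 were lower after siATM: EIF2AK2 at −0.34, EIF4EBP1 at −0.34, the exon junction helicase EIF4A3 at −0.33, EEF1D at −0.26, TARS1 at −0.25, EPRS1 and KARS1 at −0.22 each, and EIF4E at −0.21 (adjusted p between 0.0130 and 0.0442). The other 2 were higher: EEF1AKMT3 at 0.35 (adjusted p = 0.0073) and EIF4E2, a cap-binding protein that represses translation, at 0.27 (adjusted p = 0.0135). EIF5 and EEF2K were higher after siATM, by 0.27 and 0.24, and EIF5B was lower, at −0.30. ASNS, lower in both, did not differ detectably between them (−0.11, SE 0.09, adjusted p = 0.401). EIF2AK3, EEF1A2, IARS1 and MARS1, called against siNC after siATM alone, and EIF1AD, called after sip53 alone, did not pass this test, EIF2AK3 lying close to the threshold.

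**Figure D4:**
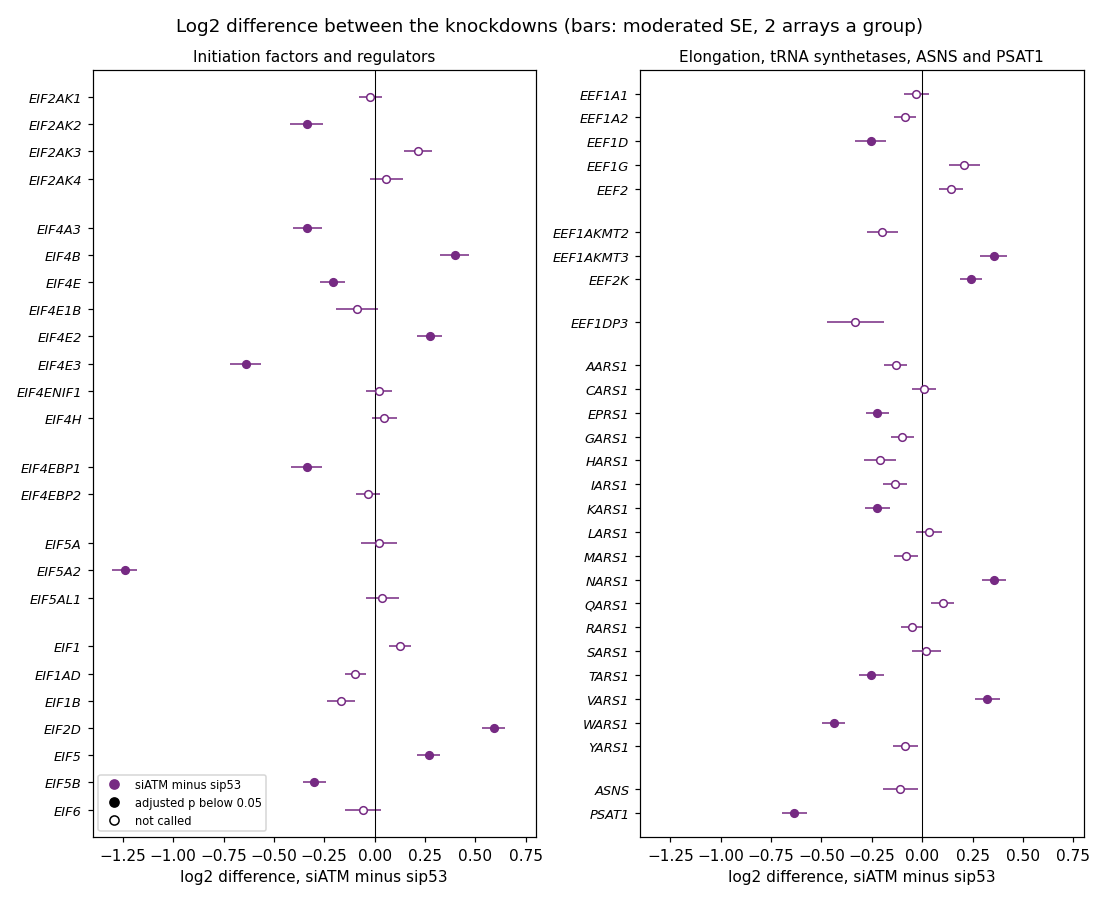
Log2 difference, siATM minus sip53 (x axis, bars are moderated SE), of the 52 tested genes grouped by role, filled where the adjusted p is below 0.05. EIF5A2 is lowest at −1.24 and EIF2D highest at 0.59.

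Leaving out any 1 array kept 8 of the 21 calls: EIF5A2, EIF2D, EIF4E3, PSAT1, WARS1, EIF4B, NARS1 and VARS1. Without sip53 replicate 1 the number of members called was 9 and without sip53 replicate 2 it was 11. Without sip53 replicate 1, EEF1AKMT3 and EIF5B lost their calls (adjusted p 0.0562 and 0.0626). Without either sip53 array, EEF2K, EIF4A3, EIF4E2 and EIF5 lost theirs (adjusted p up to 0.0980). EIF2AK2 lost its call without siATM replicate 2 or sip53 replicate 1 and EIF4EBP1 without siATM replicate 2 or sip53 replicate 2 (up to 0.106). EPRS1 and TARS1 lost theirs without siATM replicate 2 or either sip53 array (up to 0.151), EEF1D and KARS1 without any array but siATM replicate 2 (up to 0.168), and EIF4E without any 1 of the 6 (up to 0.246). The value of EEF1D moved to −0.15 without siATM replicate 1. In this comparison 8 of the 17 tested ATF4-linked genes were called (47.1%, against 30.3% of all tested genes), 5 higher (SESN2 at 0.39, PYCR1 at 0.29, VLDLR at 0.28, XBP1 at 0.25 and DDIT4 at 0.18) and 3 lower (CTH at −0.60, PSPH at −0.42 and PHGDH at −0.22). Of these, CTH, PSPH and SESN2 stayed called without any 1 array, while PYCR1 and XBP1 were lost without siATM replicate 2 or either sip53 array (adjusted p up to 0.113), PHGDH without any siATM or sip53 array (0.153), VLDLR without any array but sip53 replicate 2 (0.223) and DDIT4 without any 1 of the 6 (0.182). The value of PYCR1 was 0.18 without siATM replicate 2, and that of VLDLR 0.17 without sip53 replicate 1.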

How the data were processed

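Transcript levels were measured in MDA-MB-231 cells on 6 arrays, 2 per siRNA. The authors deposited 1 log2 value per probe set and array. The log2 scale was read from the values, and background correction, summarisation, normalization and build are not given in the sources used here. At equal rank the highest and lowest of the 6 arrays lay 0.0325 apart on average, so the deposited log2 values had nearly one distribution. Such scaling removes changes in total RNA per cell. The number of arrays limits the precision.

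Of 53617 probe sets, 16098 had 1 symbol in the platform annotation, 0 several, and 37519 were unnamed here. The probe set with the highest mean was used per gene. The 10640 genes with a mean of at least 5.96, the median over probe sets, were tested, and 4244 were not. Group means were fitted to all 6 arrays with limma 3.58.1 (R 4.3.3) and eBayes, leaving 3 residual and 7.29 total degrees of freedom. P-values are two-sided and Benjamini-Hochberg adjusted within each of 3 contrasts, and genes were called below 0.05. The code of the fit was checked on data simulated with the spread that the fit itself estimated. Such a check cannot test whether that spread is right for these samples. Promoter sequences and coordinates are RefSeq's.

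The members, gene lists and tests were chosen with earlier results of these data known. Genes named are members called in a contrast, those highest and lowest in each role group, 10 members named in any case (ASNS, PSAT1, EIF4E, EIF2AK3, EIF2AK4, EIF4EBP1, EEF1A1, EEF2, EEF2K and EPRS1) and called genes of the other lists. MCTS1, ATF4, DDIT3, ATF3, TRIB3, the markers and further uncalled members are named outside that rule. The transcripts of the siRNAs' targets are not reported here.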

Additional observations from a re-analysis of the deposited data

How the results depend on the processing

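The alternatives were no filter on dim genes, a filter at the 70th percentile, quantile normalization, arrays centred on their medians, the mean of a gene's probe sets, a variance trend with robust moderation, a fit of only the 2 groups compared, a replicate block, and each array left out. Of the calls, 10 of 12 after siATM, 2 of 8 after sip53 and 16 of 21 between the siRNAs were kept in every alternative that left out no array and tested the gene. The 10 and the 16 include EIF4E3, which the filter at the 70th percentile left out, so it was not tested there. With the variance trend and robust moderation, 21 members were called after siATM, 9 of them higher, and 1742 genes after sip53. With no filter on dim genes, 481 genes and 2 members (0 higher, 2 lower) were called after sip53 (limma), and 8 members were lower after siATM than after sip53. Of the calls named from the other lists, that setting ended CTH, PSPH, RHEB, TSC2, VLDLR and PDCD4 after siATM. After sip53 it ended CTH, MKNK2, RRAGD and SESN1, and between the siRNAs PHGDH, PYCR1, VLDLR and DDIT4. With centring, 1 member was higher after sip53 and the members' median was −0.019. Leaving out 1 array gave, after siATM, 1437 to 2226 genes and 7 to 16 members (2 to 4 higher, 5 to 12 lower, median −0.11 to −0.04). After sip53 it gave 272 to 1242 genes and 0 to 8 members (0 to 3 higher, 0 to 5 lower, median 0.01 to 0.03). Between the siRNAs it gave 1842 to 2852 genes and 9 to 21 members (4 to 9 higher, 5 to 12 lower, median −0.09 to −0.04). Only uncalled values changed sign: with 1 array left out, EIF5AL1 ranged over −0.147 to 0.083 after siATM and −0.077 to 0.152 between the siRNAs, and after sip53 EEF1DP3 ranged over −0.204 to 0.108 and EIF5A over −0.206 to 0.063. The cause of these changes was not tested beyond the smaller number of arrays.

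Samples of the same replicate number share only that number: their deviations from the group means correlated at 0.117 between siATM and sip53, 0.0363 between siATM and siNC and 0.0277 between sip53 and siNC. With the replicate block, 2696 genes and 13 members (4 higher, 9 lower, median −0.07) were called after siATM. After sip53 the block gave 1001 genes and 6 members (2 higher, 4 lower, median 0.01), and between the siRNAs 3218 genes and 22 members (9 higher, 13 lower, median −0.07). EIF1AD and VARS1 were the members whose call after sip53 the block ended (adjusted p = 0.0554 and 0.0529). The block made EIF2AK3 a call between the siRNAs (adjusted p = 0.0423). In the other lists it ended the calls of VLDLR after siATM (adjusted p = 0.0591) and between the siRNAs (0.0549), of RRAGD after sip53 (0.0633) and of DDIT4 between the siRNAs (0.0549). The block called 9 members lower after siATM where the main fit called 8, and the added member was not among those followed. Genes followed in a comparison were members called there, those highest or lowest in a role group, and called genes of the other lists. Among these the block changed no other call.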
